A study of Mus musculus with 2 samples.

Results

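C-type lectin receptor genes were followed through the immune cells of B16-F10 melanomas whose tumour cells lacked DGAT1 or were WT. All genes whose symbol starts with Clec or Cd209 were taken, which gave 38 of the 32285 genes in the files. Of these, 24 had at least 50 UMIs (unique molecular identifiers, each standing for 1 captured RNA molecule) over both libraries in at least 1 cell class, and these 24 gave 127 pairs of a gene and a class. The other 14 had no class with 50 UMIs: Clec2l, Clec4f, Clec4b2, Clec2h, Clec2f, Clec2e, Clec12b, Clec4g, Cd209e, Cd209b, Cd209g, Clec18a, Clec3a and Clec14a. Clec4f had 0 UMIs in the kept cells of both libraries, and Clec2f is annotated as a transcribed pseudogene. The pairs just inside the limit were Clec1b in cDC1-like cells with 53 UMIs, and Clec4a2 in non-classical monocyte-like cells and Cd209d in macrophage-like cells with 55 each. Just outside it were Clec2g in non-classical monocyte-like cells with 48 and Clec12a in NK-like cells and Clec4d in plasmacytoid dendritic-like cells with 47 each.

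The series compared tumour-infiltrating leukocytes between melanomas with and without DGAT1, the enzyme that makes triglycerides from diacylglycerol. B16-F10 is a mouse melanoma cell line that was grown under the skin as knockout or WT tumours. Per the labels, 3 tumours per group were taken on day 14, and viable CD45+ cells made 1 droplet library from DGAT1-knockout (KO) tumours and 1 from WT tumours. The labels do not tie cells to tumours, and do not say whether the knockout line is 1 clone. The deletion is in the grafted line, so the immune cells of both groups come from the host, whose strain, age and sex the labels do not give. Since a group is a single library, nothing here has a replicate check or a test. Each ratio below is the level in the knockout library over that in the WT library, with an exact 95% interval that covers counting error only, and values are given for the knockout library first.

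C-type lectin receptors are surface proteins whose lectin-like domain binds sugars, lipids or protein ligands, and myeloid cells use many of them to sense microbes and dying cells. Some, such as Mincle (Clec4e) and Dectin-2 (Clec4n), pair with the Fc receptor gamma chain and signal through the kinase Syk and the adaptor Card9 to switch on cytokine genes. Others, such as DCIR (Clec4a2) and MICL (Clec12a), carry an inhibitory motif in their tail and recruit phosphatases. A separate branch, the Clec2 genes, encodes ligands for the NKR-P1 receptors of natural killer cells.

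Sequencing gave 202946827 UMIs for the knockout tumours and 235652476 for the WT tumours, and 10931 and 9006 cells were kept, with a median of 10821 and 14220.5 UMIs per cell. The libraries shared 24 cell barcodes. Cells were put into 11 classes by fixed marker genes, none of them a Clec or Cd209 gene, and the classes held 9031 and 7358 cells. Neutrophil markers summed to 43628.5 and 46442 CPM (UMIs of a gene per 1000000 UMIs of the class) in neutrophil-like cells and to 90.1 and 72.9 CPM in macrophage-like cells. Classical monocyte markers were not as specific: they summed to 5775.5 and 6576 CPM in their own class and to 5842 and 6363 CPM in plasmacytoid dendritic-like cells. Macrophage-like cells made up 17.5% of classed knockout cells and 41.4% of classed WT cells, and classical monocyte-like cells 26.6% and 13.4%. A further 1750 and 1171 cells were left without a class. Dgat1 itself stood at 18.3 and 28.5 CPM in the 138 and 459 melanoma-like cells, a check of limited use because neither the deleted part of the gene nor the position of the reads in it is known.

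Of the 38 genes, 23 lie on chromosome 6, and the Dectin-2 group forms a run of 9 genes there, between 122921848 (the start of Clec4a1) and 123289870 (the end of Clec4e) in the GENCODE M21 annotation of mm10. The order is Clec4a1, Clec4a3, Clec4a4, Clec4b1, Clec4a2, Clec4b2, Clec4n, Clec4d and Clec4e. The Cd209 genes sit together on chromosome 8. Some neighbours are close copies, which counting can confuse: 21.0% of the 31-base words in Clec4a4 transcripts, 19.0% of those in Clec4b1 and 9.69% of those in Clec4a2 also occur in another member, as do 36.3% of those in Cd209f. The share was 20.1% for Cd209g, 10.7% for Clec2i, 8.86% for Clec2g and 7.86% for Clec2d. Clec2i and Clec2g had 226 words in common. Levels of all these genes are therefore uncertain. Clec4a1, Clec4d, Clec4e and Clec5a shared no such word with another member.

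Genes of this run differed in opposite directions between the libraries. The 250 bases before the RefSeq start of 5 of its genes and of Clec5a are therefore shown, 5′ to 3′ on the gene's strand. They come from the GRCm38.p6 build. No window was available for Clec4n, the only gene of the run at least 1.5-fold higher in macrophage-like cells of the knockout library (ratio 2.17). Clec4d (1.06) and Clec4e (1.38) did not reach 1.5-fold there, so the windows hold no such gene of the run. Capitals mark matches on either strand to an ETS core (GAGGAA), a C/EBP motif (TTGCNNAA) or an AP-1 motif (TGANTCA).
Clec4a1, chr6:122921598-122921847, plus strand: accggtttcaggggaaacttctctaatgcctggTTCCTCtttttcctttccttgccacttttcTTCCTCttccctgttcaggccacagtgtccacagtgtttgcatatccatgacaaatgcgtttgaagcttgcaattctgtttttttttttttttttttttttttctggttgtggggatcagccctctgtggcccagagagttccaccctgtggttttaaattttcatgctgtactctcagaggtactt
Clec4a3, chr6:122952265-122952514, plus strand: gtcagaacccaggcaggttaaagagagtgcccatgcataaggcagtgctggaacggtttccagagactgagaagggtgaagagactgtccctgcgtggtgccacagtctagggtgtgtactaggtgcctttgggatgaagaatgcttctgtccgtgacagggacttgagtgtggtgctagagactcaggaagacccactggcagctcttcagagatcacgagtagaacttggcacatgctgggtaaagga
Clec4b1, chr6:123049712-123049961, plus strand: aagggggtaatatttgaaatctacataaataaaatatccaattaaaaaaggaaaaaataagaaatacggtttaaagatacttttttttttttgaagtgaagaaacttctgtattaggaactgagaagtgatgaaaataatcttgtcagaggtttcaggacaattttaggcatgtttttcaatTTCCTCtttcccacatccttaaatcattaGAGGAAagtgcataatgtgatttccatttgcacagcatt
Clec4d, chr6:123261857-123262106, plus strand: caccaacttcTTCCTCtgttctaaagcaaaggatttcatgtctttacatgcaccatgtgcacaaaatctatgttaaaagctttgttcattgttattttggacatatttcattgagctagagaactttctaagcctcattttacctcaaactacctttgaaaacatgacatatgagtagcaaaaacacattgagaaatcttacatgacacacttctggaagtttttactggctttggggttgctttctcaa
Clec4e, chr6:123289872-123290121, minus strand: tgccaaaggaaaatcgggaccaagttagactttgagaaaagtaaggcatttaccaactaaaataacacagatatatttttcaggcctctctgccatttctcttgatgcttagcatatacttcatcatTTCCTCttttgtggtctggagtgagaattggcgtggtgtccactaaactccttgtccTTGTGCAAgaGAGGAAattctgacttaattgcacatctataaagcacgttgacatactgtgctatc
Clec5a, chr6:40585806-40586055, minus strand: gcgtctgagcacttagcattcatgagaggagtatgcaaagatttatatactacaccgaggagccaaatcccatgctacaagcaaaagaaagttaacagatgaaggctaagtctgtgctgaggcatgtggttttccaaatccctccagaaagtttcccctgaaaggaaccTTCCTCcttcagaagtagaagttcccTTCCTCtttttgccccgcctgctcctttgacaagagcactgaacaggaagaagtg
The Clec4e window holds ETS matches that begin 123 and 56 bases before the start and a C/EBP match that begins at 66 bases. Clec4b1 has ETS matches at 68 and 39 bases. Clec4a1 has ETS matches at 217 and 187 bases, Clec5a at 81 and 55, and Clec4d 1 at 240, while none of these letters occur in the Clec4a3 window. The RefSeq table held windows for 31 of the 38 members. Among them 13 had the ETS core, which 23.3% of all 32851 windows have, and 5 had the C/EBP motif, against 9.56%. The AP-1 motif was in 7, against 6.75%. A match is a run of letters and not a shown binding site.

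**Figure D1:**
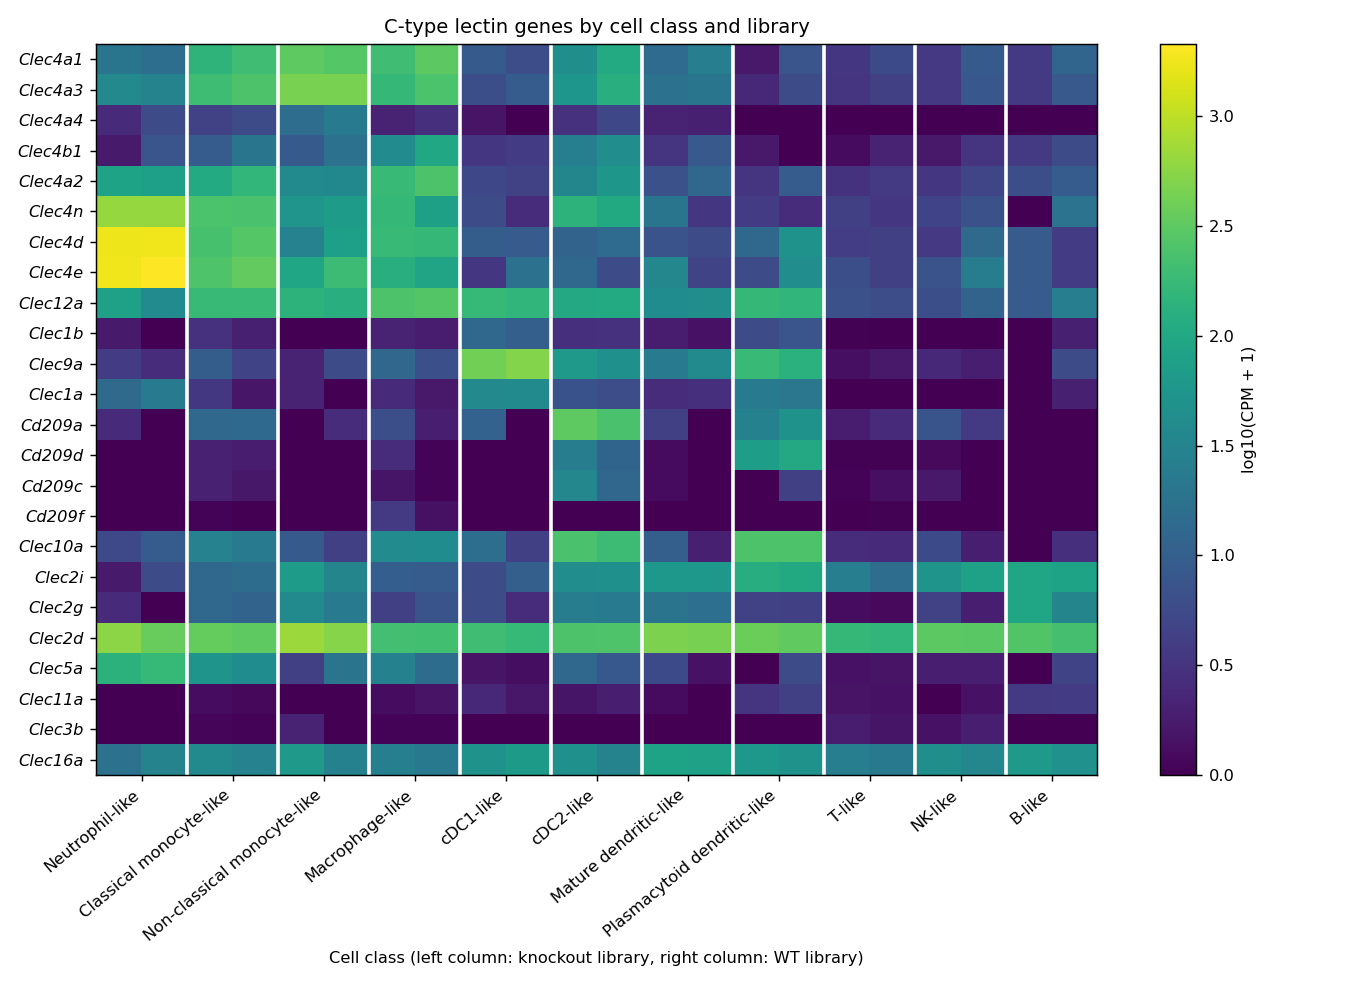
Level of the 24 members with at least 50 UMIs in some class, as log10(CPM + 1), in 11 marker-gated cell classes (left column of each pair: knockout library, right: WT library). Clec4d and Clec4e peak in neutrophil-like cells, Clec9a in cDC1-like cells, Cd209a in cDC2-like cells, and Clec2d is present in every class.

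The members divided the immune classes between them. Clec4d (MCL, the partner of Mincle) stood at 1755 and 1826 CPM in neutrophil-like cells and Clec4e at 1821 and 2138.5 CPM. In classical monocyte-like cells the same genes were at 225 and 284 CPM for Clec4d and at 257 and 336 CPM for Clec4e. In macrophage-like cells Clec4d was at 173.5 and 163 CPM and Clec4e at 121 and 87.3 CPM, so for both genes the order of these classes was the same in both libraries. At least 1 Clec4d UMI was seen in 94.8% and 97.5% of neutrophil-like cells, and in 89.1% and 93.0% after every cell was thinned to 2000 UMIs. In T-like cells, which should lack the gene, that share was 4.30% and 5.32%, and 0.765% and 0.745% after thinning. Median depths were 4273 and 4445 UMIs in neutrophil-like cells, against 16462.5 and 19152 in T-like cells. Most neutrophil-like cells carried both transcripts: 85.4% and 89.0% had a UMI of each. In macrophage-like cells only 28.8% and 27.3% had a UMI of each, although 65.9% and 63.5% had a UMI of at least 1 of them.

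Clec4a3, a gene of the DCIR family, was highest in non-classical monocyte-like cells, at 452 and 457 CPM. Clec4a1 stood there at 314 and 284 CPM. Clec12a was spread over the myeloid classes, with 248 and 277 CPM in macrophage-like cells, 176 and 175.5 CPM in classical monocyte-like cells and 170.2 and 156 CPM in cDC1-like cells. Clec9a (DNGR-1, a receptor for the actin filaments that dead cells expose) was highest in cDC1-like cells at 413 and 512 CPM. It came next in plasmacytoid dendritic-like cells at 174 and 133 CPM, and cDC2-like cells had 60.7 and 45.3 CPM. Cd209a, a mouse relative of DC-SIGN, was at 316 and 234.6 CPM in cDC2-like cells and 27.8 and 49.8 CPM in plasmacytoid dendritic-like cells. Clec10a (MGL1, a galactose-type lectin) was shared between these classes, with 237 and 192 CPM in cDC2-like and 254 and 252 CPM in plasmacytoid dendritic-like cells. The last pair of values had a ratio of 1.01 (0.83 to 1.23). Cd209d was highest in plasmacytoid dendritic-like cells, at 73.5 and 101 CPM, with 103 and 61 UMIs behind these values.

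Clec2d, the ligand of the inhibitory receptor NKR-P1B, passed the UMI limit in all 11 classes, which no other member did. Its levels ran from 162 and 154 CPM in T-like cells to 679 and 527.6 CPM in non-classical monocyte-like cells. Clec16a, an intracellular protein of the endosome and autophagy pathways that has no role as a surface lectin, passed in 10 classes. Clec11a and Clec3b, which encode secreted proteins, passed only in T-like cells, where they stood at 0.505 and 0.460 CPM and at 0.802 and 0.552 CPM.

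In the 1581 and 3047 macrophage-like cells, 7 of the 21 tested members were at least 1.5-fold higher in the knockout library, where 6.5% of the 13286 genes tested in this class were, and 4 were at least 1.5-fold lower, where 5.47% were. The median log2 ratio was 0.10 over these members and -0.01 over all tested genes. Genes of the Dectin-2 group were called in both directions. Clec4n, the activating receptor Dectin-2, stood at 166 and 76.6 CPM, with a ratio of 2.17 (2.09 to 2.26). Clec4b1 (an activating relative of the DCIR genes) was at 39.7 and 96.3 CPM, giving a ratio of 0.41 (0.39 to 0.44). Clec4a1 was at 203 and 313 CPM, giving a ratio of 0.65 (0.63 to 0.67). Clec4a3 and Clec4a2 were also lower without reaching 1.5-fold. Clec4a3 had 166 and 241 CPM, giving a ratio of 0.69 (0.67 to 0.71). Clec4a2 had 179 and 249.5 CPM, giving a ratio of 0.72 (0.70 to 0.74). Clec4e had a ratio of 1.38 (1.33 to 1.44) and Clec4d of 1.06 (1.03 to 1.10). In chromosomal order the first 5 tested genes of the run had ratios under 1 and the last 3 had ratios over 1, of which Clec4d came to 0.996 with each cell weighted alike. The low-count gene Clec4a4 was at 1.10 and 1.83 CPM, giving a ratio of 0.60 (0.40 to 0.89).

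**Figure D2:**
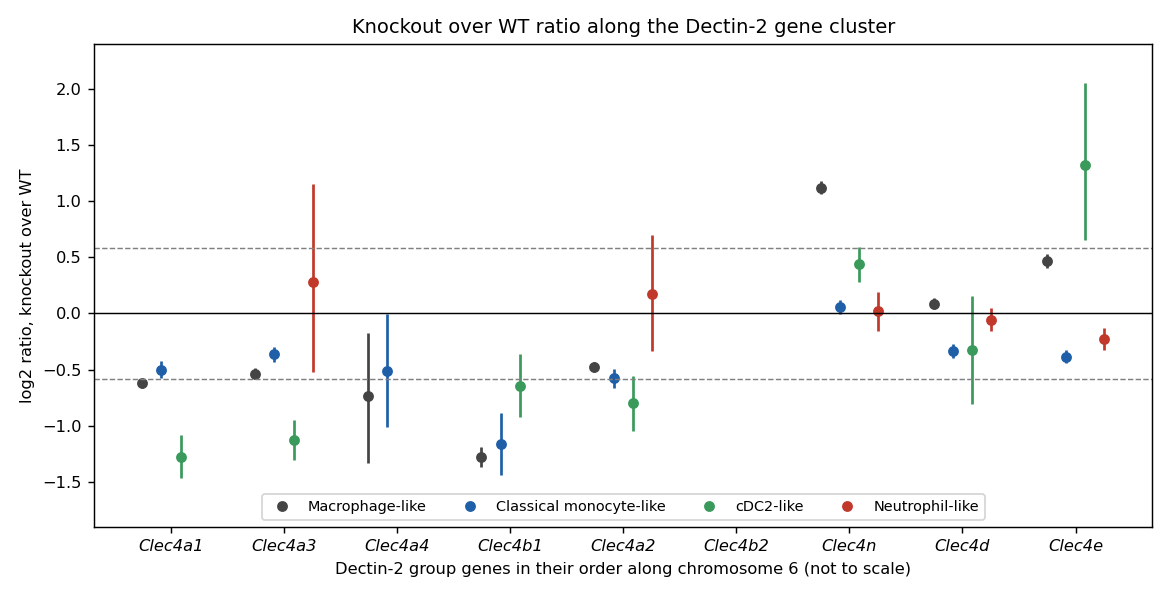
Log2 ratio of knockout over WT for the Dectin-2 group genes, in chromosomal order, in 4 cell classes, for pairs with at least 50 UMIs (points: ratio, bars: exact 95% interval for counting error only, dashed lines: 1.5-fold). In macrophage-like, classical monocyte-like and cDC2-like cells, Clec4a1, Clec4a3, Clec4b1 and Clec4a2 lie below 0, whereas macrophage-like Clec4n lies above 1.

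Shares of cells gave the same direction. At least 1 Clec4n UMI was found in 53.5% (51.0 to 56.0) and 35.5% (33.8 to 37.2) of macrophage-like cells, with exact binomial intervals. After thinning to 2000 UMIs the shares were 21.0% and 12.4%. T-like cells gave 4.66% and 2.71% unthinned and 0.565% and 0.326% thinned, at median depths near those of macrophage-like cells (16423 and 20325 UMIs). For Clec4b1 the shares were 27.1% and 47.9% of macrophage-like cells, and 5.63% and 11.8% after thinning. T-like cells had 0.529% and 2.38% for this gene, or 0.133% and 0.326% thinned.

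Outside the Dectin-2 group, Clec5a (MDL-1, which signals through the adaptors DAP12 and DAP10) was at 28.5 and 13.9 CPM, giving a ratio of 2.06 (1.87 to 2.26). Clec9a was low in this class, at 11.6 and 5.58 CPM, with a ratio of 2.08 (1.80 to 2.41) that came to 1.29 with clusters in place of gates. That setting takes only clusters 3 and 7 as macrophage-like and leaves out clusters 0, 1, 6 and 18, which took no class name. Within the gate, Clec9a had ratios of 1.34 in cluster 3 and 1.20 in cluster 7. In cluster 1 it had 133 and 26 UMIs and a ratio of 2.44 (1.60 to 3.88). Of its transcript words, 155 are shared with the overlapping gene Clec1b. Clec1a had 46 and 48 UMIs and a ratio of 2.26 (1.47 to 3.45), with 67.4% of the knockout UMIs in 10 cells. This ratio did not hold: it came to 1.07 without the 10 top cells of each library, to 0.851 with clusters in place of gates and to 0.948 in cells well inside the gate. The Cd209 genes rested on few cells. Cd209a had 158 and 65 UMIs in 32 and 13 cells, a ratio of 5.72 (4.26 to 7.76), and Cd209f had 81 and 30 UMIs in 6 and 7 cells, a ratio of 6.36 (4.13 to 10.0). Cd209f came to 0.851 with clusters in place of gates, a setting without cluster 18. That cluster held 79 and 24 of the Cd209f UMIs, a ratio of 4.66 (2.92 to 7.70). The 6 cDC2 markers summed to 126 and 94.6 CPM in this class, with none of the 6 at 0. Cbfa2t3 was at 33.0 and 13.5 CPM and H2-DMb2 at 12.5 and 4.77 CPM. Zbtb46 was at 4.90 and 1.54 CPM and Flt3 at 2.00 and 0.708 CPM. Ifitm1 was nearer parity, at 29.1 and 24.3 CPM, and Tnip3 went the other way, at 44.5 and 49.8 CPM. Clusters 8 and 22, which held most cDC2-like cells, also had cells in this class. Cells of cluster 8 made up 0.886% and 0.295% of it and those of cluster 22 1.20% and 0.263%. Their part in the Cd209a and Cd209d ratios was not tested. Cd209d had 49 and 6 UMIs in 12 and 6 cells. Clec2g was the remaining member called lower, at 3.33 and 6.36 CPM, giving a ratio of 0.52 (0.42 to 0.65). Its share of macrophage-like cells after thinning was 0.388% and 0.922%. Clec12a, one of the most abundant members here, had a ratio of 0.90 (0.87 to 0.92), and Clec10a one of 0.95 (0.89 to 1.02).

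The macrophage-like class was a mixture whose make-up differed between the libraries. Cluster 3, led by genes such as Negr1 and the complement genes C1qa and C1qc, held 26.6% and 37.2% of the class in the knockout and WT library. Cluster 7, led by Gdf15, Fabp4 and Ifnb1, held 15.1% and 23.1%. Cluster 1, whose leading genes include Spon1 and the monocyte gene Ccr2, held 14.8% and 3.18%. Cluster 0, led by Inhba, Egln3, Pdpn and Mmp12, held 15.2% and 13.4%, and cluster 6, led by Pf4, Arg1 and Spp1, 17.8% and 15.7%. Classical monocyte markers summed to 894 and 721 CPM in the class, with none of the 6 at 0. Their part in the ratios was not tested, and values are therefore also given cluster by cluster.

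**Figure D3:**
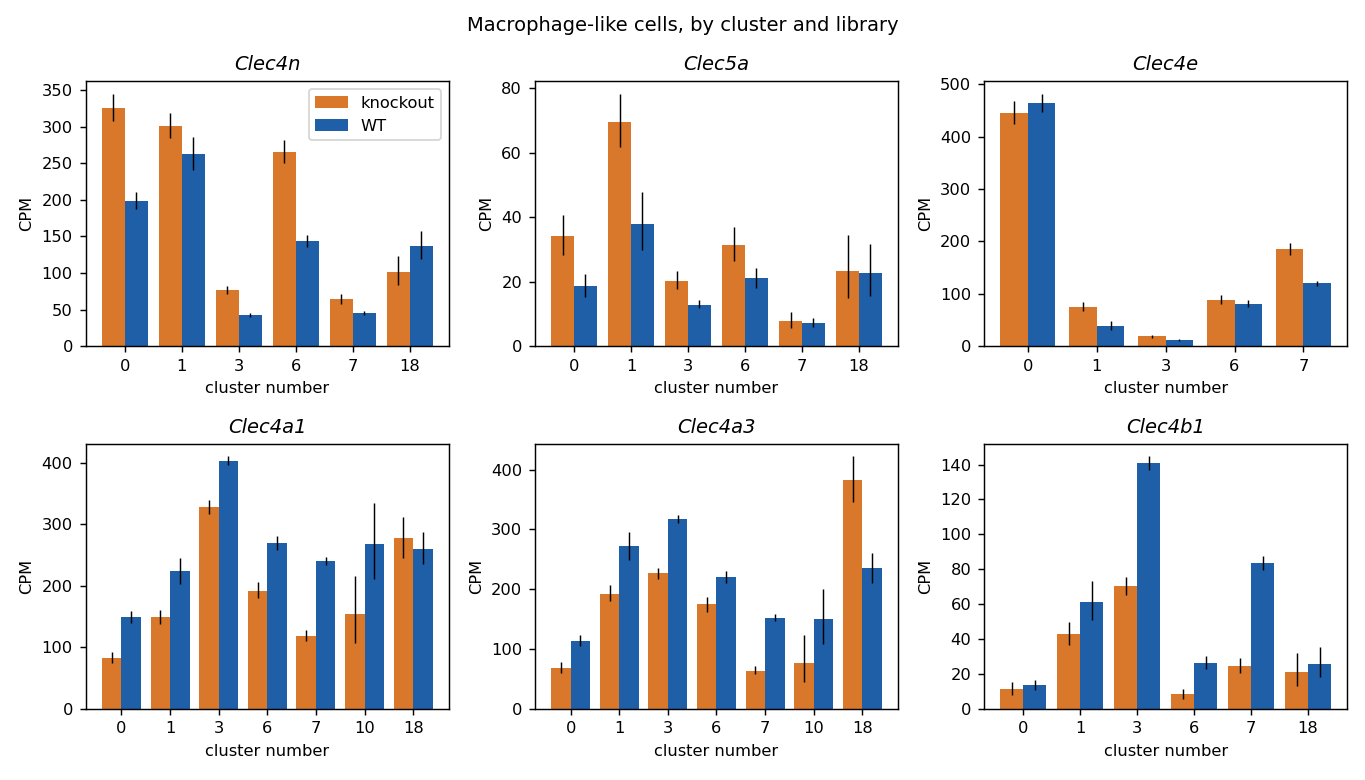
CPM of 6 members in macrophage-like cells by cluster (orange: knockout library, blue: WT library, bars: exact 95% Poisson interval for counting error only). Clusters are shown where the member had at least 50 UMIs, and each panel has its own axis. Clec4b1 is lower in the knockout library in all 6 clusters shown, and Clec4n is higher in clusters 0, 1, 3, 6 and 7 but not in cluster 18.

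In the complement-led cluster 3, Clec4n was at 77.1 and 42.4 CPM, Clec5a at 20.2 and 12.9 CPM and Clec4b1 at 70.4 and 141 CPM. These give ratios of 1.82, 1.57 and 0.50, so all of them stayed past 1.5-fold within that cluster. Clec4a1 in cluster 3 was at 328 and 404 CPM, giving a ratio of 0.81, which did not. Clec4n was highest in clusters 0, 1 and 6. It had 326 and 199 CPM in cluster 0, 301 and 262.5 CPM in cluster 1 and 266 and 143 CPM in cluster 6, so the cluster with Ccr2 showed a ratio of only 1.15. In the small cluster 18, led by Ednrb, Cbr2 and Gas6 and holding Lyve1, Cd163 and Folr2, Clec4n was at 101 and 137 CPM. When every cluster was given equal weight, the ratio of Clec4n was 1.46, that of Clec5a 1.32 and that of Clec4a1 0.72, all within 1.5-fold, whereas Clec4b1 stayed at 0.51. This setting averages levels, so clusters where a gene is high count most. Clec4b1 was past 1.5-fold in 3 of its 6 clusters, with ratios of 0.50, 0.32 and 0.30 in clusters 3, 6 and 7. Its ratio was 0.70 in cluster 1, 0.84 (0.56 to 1.24) in cluster 0 and 0.82 (0.46 to 1.42) in cluster 18. Cd209a moved to 1.18 under the same weighting. With clusters in place of gates it came to 21.0, and without the 10 top cells of each library to 20.6. In cluster 3 Cd209a had 66 and 9 UMIs, a ratio of 24.9 (12.4 to 56.9). Clec4a1, Clec4a2 and Clec4a3 were lower in the knockout library in clusters 0, 1, 3, 6, 7 and 10, and higher in cluster 18, where Clec4a3 had 382 and 234.5 CPM.

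In macrophage-like cells Clec4e and Clec4d were higher in cluster 0 than in cluster 3, and Clec4b1 was higher in cluster 3. Clec4e was at 446 and 465 CPM in cluster 0 and at 18.7 and 11.6 CPM in cluster 3. Clec4b1 was at 11.3 and 13.4 CPM in cluster 0, far under its level in cluster 3. These genes are among the leading genes of the clusters, so the contrast between clusters is a description. Cluster 7 had 185.5 and 120.1 CPM of Clec4e, a ratio of 1.54, and cluster 0 a ratio of 0.96. Clec4b1 was at 24.7 and 83.4 CPM in cluster 7 and Clec4d at 189 and 173 CPM, so both genes were detected in that cluster. They were also both detected in cluster 1 (Clec4b1 at 42.9 and 61.2 CPM, Clec4d at 50.3 and 45.1 CPM). In cluster 3 Clec4d was at 53.3 and 43.8 CPM. These levels are summed over a cluster, and whether single cells held both genes was not tested.

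The 2405 and 986 classical monocyte-like cells had 1 gene of the Dectin-2 group past 1.5-fold, Clec4b1, and Clec4n was not. Of 19 tested members 3 were at least 1.5-fold higher in the knockout library, where 5.42% of all tested genes were, and 1 was lower, where 3.65% were. Clec4b1 was at 8.43 and 18.8 CPM, giving a ratio of 0.45 (0.37 to 0.54). Clec4a2 was at 108 and 161 CPM, giving a ratio of 0.67 (0.63 to 0.71), just inside 1.5-fold. Clec4a1 was at 145 and 204 CPM, giving a ratio of 0.71 (0.67 to 0.74), and Clec4a3 at 197 and 254 CPM, giving a ratio of 0.78 (0.74 to 0.81). Clec4n was at 246 and 236 CPM, giving a ratio of 1.04 (0.997 to 1.09). Clec4e and Clec4d had ratios of 0.77 (0.74 to 0.80) and 0.79 (0.76 to 0.83). The difference between the Clec4n ratios of the 2 classes was not tested.

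The members higher in these cells were all of low level. Clec9a was at 8.50 and 3.78 CPM, giving a ratio of 2.25 (1.63 to 3.16), and came to 0.942 after thinning. Clec1a had 62 and 7 UMIs and a ratio of 4.24, which came to 1.31 with clusters in place of gates. Clec1b, the receptor for podoplanin on platelets, had 50 and 12 UMIs and a ratio of 1.995, which came to 0.817 with clusters in place of gates. In that setting cluster 4 alone stood for the class. The class held cells of clusters 1 (34.1% and 28.0%), 4 (29.0% and 23.5%), 0 (25.5% and 28.1%) and 6 (7.78% and 14.9%). Cluster 4 is led by monocyte genes such as Chil3 and Vcan together with the non-classical monocyte genes Ace and Treml4. In cluster 1 Clec4b1 had a ratio of 0.32, Clec4a2 of 0.63 and Clec4n of 1.01. In cluster 4 the ratio of Clec4b1 was 1.03, on few UMIs, that of Clec4a2 0.61 and that of Clec4d 0.49. In cluster 0 Clec4d stood at 584 and 641 CPM, against 57.6 and 60.3 CPM in cluster 1, so much of the class's Clec4d came from cells of cluster 0.

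The 267 and 118 neutrophil-like cells, with the highest levels of the Mincle pair, differed by less than 1.5-fold in it. Clec4e had a ratio of 0.85 (0.80 to 0.91) and Clec4d of 0.96 (0.89 to 1.03). Clec4n stood at 639.9 and 632 CPM, giving a ratio of 1.01 (0.90 to 1.14), and Clec5a at 138 and 169.6 CPM, giving a ratio of 0.81 (0.64 to 1.04). These moved with the calling of cells: with only barcodes above the UMI threshold Clec4e came to 2.31, Clec4d to 2.41, Clec4n to 1.45 and Clec5a to 5.02. The thresholds differ between the libraries, at 9276 and 16616 UMIs. Both lie above the median depths of neutrophil-like cells, 4273 and 4445 UMIs, so this setting keeps only the deeper cells of the class. None of the 8 tested members was at least 1.5-fold lower, where 10.1% of all genes tested in this class were, and 2 were higher, where 11.0% were. Clec2d was at 556 and 356 CPM, giving a ratio of 1.56 (1.34 to 1.83), and at 1.21 when the neutrophil-led cluster was taken in place of the gate. Clec12a was at 79.5 and 39.5 CPM, giving a ratio of 2.01 (1.28 to 3.28), with 65.7% and 87.5% of its UMIs in 10 cells. In the same cells classical monocyte markers summed to 898 and 477 CPM and macrophage markers to 247 and 599 CPM, with none of the 6 of either list at 0. Their part in these ratios was not tested.

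Non-classical monocyte-like cells, 167 and 88 in number, had 2 of 10 members at least 1.5-fold higher, where 9.78% of genes were, and 2 lower, where 7.8% were. Clec4e was at 90.8 and 189.6 CPM, giving a ratio of 0.48 (0.36 to 0.64), and Clec4d at 28.8 and 75.8 CPM, giving a ratio of 0.38 (0.23 to 0.63). Of these Clec4d UMIs, 69.2% and 89.1% lay in 10 cells, and the ratio came to 1.01 without the 10 top cells of each library and to 0.727 with doublets kept. Neutrophil markers summed to 262 and 452 CPM in the class, S100a9 among them to 8.86 and 69.2 CPM and Hdc to 3.32 and 107 CPM, and of the 6 only Retnlg was at 0. Their part in the Clec4e and Clec4d ratios was not tested. Clec2i was at 68.6 and 31.3 CPM, giving a ratio of 2.19, and Clec16a at 62.0 and 28.0 CPM, giving a ratio of 2.21. The leading receptors of the class did not differ by 1.5-fold: Clec4a3 had a ratio of 0.99 (0.85 to 1.16) and Clec4a1 of 1.11 (0.91 to 1.35).

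In the 523 and 231 cDC2-like cells 2 genes of the DC-SIGN group were higher in the knockout library, of the 3 of its 7 that could be tested, and 3 genes of the DCIR family were lower. Of 19 tested members, 5 were at least 1.5-fold higher, where 6.87% of the 10226 tested genes were, and 4 lower, where 3.64% were. Cd209c was at 34.2 and 11.4 CPM, giving a ratio of 3.01 (2.23 to 4.12). Cd209d was at 24.9 and 10.9 CPM, giving a ratio of 2.28 (1.67 to 3.17), but 53.4% and 81.6% of its UMIs lay in 10 cells. The most abundant member of the group, Cd209a, had a ratio of 1.35 (1.26 to 1.45). Cd209c was found in 27.7% (23.9 to 31.8) and 10.8% (7.13 to 15.6) of cDC2-like cells, and in 7.88% and 2.61% after thinning. T-like cells had 0.198% and 0.229% with a Cd209c UMI. Clec10a had a ratio of 1.24 (1.14 to 1.34) and Clec4n one of 1.35 (1.22 to 1.51).

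The 4 members called lower in cDC2-like cells were all of the Dectin-2 group. Clec4a1 was at 44.9 and 109 CPM, giving a ratio of 0.41 (0.36 to 0.47). Clec4a3 was at 55.0 and 120.1 CPM, giving a ratio of 0.46 (0.41 to 0.52). Clec4a2 was at 32.9 and 57.4 CPM, giving a ratio of 0.57 (0.49 to 0.68), and Clec4b1 at 26.4 and 41.3 CPM, giving a ratio of 0.64 (0.53 to 0.78). These genes were lower both in cluster 8, led by Ifitm1, Cd209a and Kmo, and in the smaller cluster 22, led by Retnla and Ear2. The ratio of Clec4a1 was 0.36 in cluster 8 and 0.44 in cluster 22. Cluster 8 held 80.7% and 76.2% of the class.

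**Figure D4:**
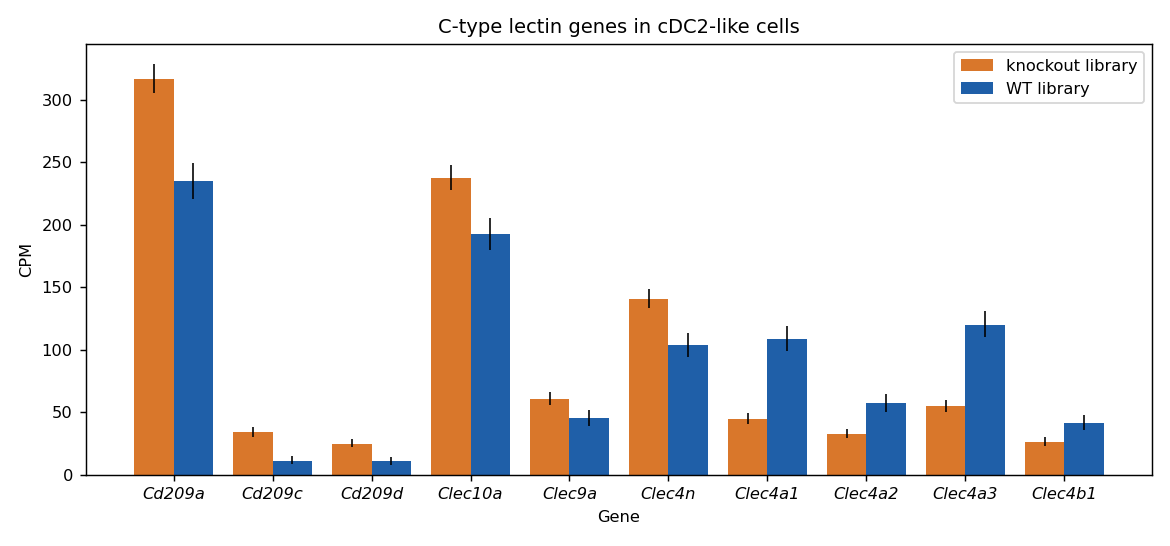
CPM of 10 members in cDC2-like cells (orange: knockout library, blue: WT library, bars: exact 95% Poisson interval for counting error only). Cd209a, Cd209c, Cd209d and Clec10a are higher in the knockout library, and Clec4a1, Clec4a2, Clec4a3 and Clec4b1 lower.

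Marker genes differed between the libraries in these cells too. The 6 cDC2 markers summed to 2654 and 4019.5 CPM, with Ifitm1 at 1335 and 2835 CPM. Tnip3 was at 108 and 159 CPM and H2-DMb2 at 284 and 306 CPM. Zbtb46, at 298 and 232.5 CPM, and Cbfa2t3, at 545 and 405 CPM, went the other way. Flt3 was at 84.3 and 82.6 CPM. The 6 classical monocyte markers summed to 878 and 1705.5 CPM, most of it from Plac8 at 657 and 1449 CPM. Of the others, Ly6c2 was at 43.9 and 42.4 CPM, Ccr2 at 162 and 201 CPM and F13a1 at 8.53 and 10.7 CPM. Vcan was at 4.90 and 1.34 CPM and Chil3 at 1.71 and 1.12 CPM. The 6 macrophage markers summed to 109.5 and 169 CPM, and no marker of these lists was at 0. The part of these marker differences in the lower DCIR family levels and the higher Cd209 levels was not tested. The 3 other members called higher were Clec4e, Clec5a and Clec16a. Clec4e had 115 and 22 UMIs in 29 and 13 cells, free RNA would account for 27.2% and 36.9% of them, and the ratio came to 0.996 in cells well inside the gate. Clec5a was at 11.9 and 7.36 CPM, giving a ratio of 1.62 (1.09 to 2.47), which moved to 1.06 in cells well inside the gate and to 5.75 after thinning. Clec16a was at 45.6 and 30.1 CPM, giving a ratio of 1.51 (1.25 to 1.85), and came to 0.957 with clusters weighted alike.

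The other dendritic classes were smaller. Among the 7 members tested in cDC1-like cells none was at least 1.5-fold higher, where 7.34% of genes were, and 1 was lower, where 4.44% were. That 1 was Clec4e, with 5 and 53 UMIs in 4 and 10 cells, and free RNA could account for all of the 5. Clec9a, which is used to recognise these cells, had a ratio of 0.81 (0.74 to 0.88) and was found in 96.5% and 100% of the 86 and 130 cells, against 0.694% and 0.688% of T-like cells. After thinning, the share of cDC1-like cells was 61.6% and 59.8%. Clec1a, at 36.4 and 38.2 CPM, had a ratio of 0.95 (0.71 to 1.28).

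Plasmacytoid dendritic-like cells had 8 tested members, of which none was higher by 1.5-fold, where 12.0% of genes were, and 1 was lower, where 6.79% were. The lower one was Cd209a, with 39 and 30 UMIs and a ratio of 0.56 (0.34 to 0.93). Clec9a had a ratio of 1.31 (1.02 to 1.71) and Cd209d of 0.73 (0.52 to 1.01). Only 42 WT cells stood behind these values. NK markers summed to 5.71 and 252 CPM in the class, T markers to 31.4 and 204 CPM and neutrophil markers to 18.6 and 121 CPM, with Retnlg of the last list at 0. Their part in these ratios was not tested.

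Mature dendritic-like cells, recognised by Ccr7 and Fscn1, had 10 tested members. Of these 2 were at least 1.5-fold higher, where 10.6% of genes were, and 2 lower, where 3.63% were. Clec4e had 127 and 8 UMIs in 15 and 5 cells, a ratio of 9.12 (4.49 to 21.6). Clec4n had 69 and 5 UMIs in 17 and 4 cells, a ratio of 7.93 (3.24 to 25.2). For both genes, 10 cells held most of the knockout UMIs (96.1% and 89.9%), so few cells carried the difference. Classical monocyte markers summed to 284 and 236 CPM in the class and macrophage markers to 103 and 199 CPM, and their part in these ratios was not tested. Clec9a was at 22.9 and 37.5 CPM, giving a ratio of 0.61 (0.44 to 0.84), which came to 0.978 without the 10 top cells of each library and to 0.731 with each cell weighted alike. Clec4a1 had 51 and 55 UMIs, a ratio of 0.53 (0.36 to 0.79). The abundant Clec2d, at 475 and 442 CPM, had a ratio of 1.07 (0.99 to 1.16), and Clec2i, at 57.9 and 59.0 CPM, one of 0.98 (0.78 to 1.23).

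In lymphoid cells the members that counted were the NKR-P1 ligands. T-like cells had 17 tested members, 2 at least 1.5-fold higher, where 3.63% of genes were, and 4 lower, where 6.3% were. Clec2i (Clr-g, a ligand of NKR-P1F) was at 25.8 and 14.6 CPM, giving a ratio of 1.76 (1.62 to 1.92), and was found in 33.2% (31.5 to 34.9) and 22.4% (20.6 to 24.2) of T-like cells. After thinning the shares were 6.12% and 3.49%, and in neutrophil-like cells 0.375% and 2.54% of cells had a UMI of it. By cluster, Clec2i was at 24.6 and 12.6 CPM in the dividing cells of cluster 2 and at 63.8 and 61.5 CPM in cluster 9, whose leading genes include Tcf7 and Lef1. With clusters weighted alike the ratio was 1.23. Clec2d had a ratio of 1.05 (1.02 to 1.08) in the same cells.

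The other T-like calls were of myeloid genes at low level. Clec4e was higher, at 5.30 and 3.28 CPM, with free RNA estimated to give 62.8% of the UMIs in the knockout library. Clec4a1, Clec4b1 and Clec9a were lower, with free RNA giving 73.8%, 100% and 45.4% of their UMIs in the WT library. Cd209a, also lower, had 53 and 83 UMIs, and in the WT library all 83 lay in 10 cells.

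NK-like cells had 4 tested members, none at least 1.5-fold higher, where 6.86% of genes were, and 1 lower, where 3.38% were. The lower one was Clec4e, with 26 UMIs, 55.2% of them estimated as free RNA, against 56 UMIs that lay in 10 cells. Clec2i was at 52.5 and 78.5 CPM, giving a ratio of 0.67 (0.55 to 0.82), on the other side of 1 from its ratio in T-like cells. It lay so near 1.5-fold that its call changed with the processing, with 0.664 for clusters in place of gates. The receptors of these ligands were all measured in NK-like cells: none of the 4 NKR-P1 genes differed by 1.5-fold, and Klrb1b, the receptor of Clec2d, was at 255 and 219.7 CPM. Klrb1c, 1 of the 4, was also a marker that set this class. In T-like cells 2 of 4 were at least 1.5-fold higher, where 3.63% of genes were. Classical monocyte-like cells had 2 of 3 higher (5.42%) and macrophage-like cells 1 of 2 (6.5%). None was lower in these classes (6.3%, 3.65% and 5.47%). In cDC1-like, cDC2-like and mature dendritic-like cells none of those tested was past 1.5-fold. Among the 4 members tested in the 61 and 150 B-like cells, 1 was higher, where 11.7% of genes were, and none lower, where 8.6% were. It was Clec2g, with 33 and 34 UMIs in 16 and 25 cells, at 89.1 and 31.9 CPM, giving a ratio of 2.79 (1.68 to 4.65), which came to 1.32 without the 10 top cells of each library.

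The signalling chain below these receptors was measured in macrophage-like cells. Of 13 listed partners 2 were at least 1.5-fold higher, where 6.5% of all tested genes were, and none was lower, where 5.47% were, with a median log2 ratio of -0.01, the same as over all tested genes. Malt1, a subunit of the Card9 complex, was at 229.8 and 106.5 CPM, giving a ratio of 2.16 (2.09 to 2.23). Prkcd, the kinase that activates Card9, was at 226 and 148 CPM, giving a ratio of 1.53 (1.48 to 1.57). Neither was particular to this class. In the other classes Malt1 had ratios from 0.95 in NK-like to 1.85 in mature dendritic-like cells, with 1.60 in classical monocyte-like cells. Prkcd had ratios from 1.16 in T-like to 1.97 in NK-like cells, with 1.81 in classical monocyte-like cells. The receptor-side adaptors were closer to parity or lower: Fcer1g, the gamma chain, had 2295 and 3048 CPM, giving a ratio of 0.75 (0.75 to 0.76), and Tyrobp (DAP12) 1299.9 and 1440.3 CPM, giving a ratio of 0.90 (0.89 to 0.91). Syk had a ratio of 0.97, and Card9 of 1.06 (0.91 to 1.22).

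Of 12 genes listed as outputs of Syk and Card9, 10 were tested in macrophage-like cells, 6 were at least 1.5-fold higher, where 6.5% of all tested genes were, and 1 lower, where 5.47% were, with a median log2 ratio of 0.80. Other classes went either way, given here with the share of all tested genes in brackets. T-like cells had 4 of 8 higher (3.63%) and none lower (6.3%). Non-classical monocyte-like cells had none of 4 higher (9.78%) and 3 lower (7.8%). cDC1-like cells had 1 of 4 higher (7.34%) and 3 lower (4.44%), and NK-like cells 1 of 5 higher (6.86%) and 3 lower (3.38%). Classical monocyte-like cells had 2 of 9 higher (5.42%) and 1 lower (3.65%), and cDC2-like cells 2 of 6 higher (6.87%) and none lower (3.64%). Mature dendritic-like cells had 2 of 6 higher (10.6%) and 1 lower (3.63%). Neutrophil-like cells had none of 7 higher (11.0%) and 1 lower (10.1%), and plasmacytoid dendritic-like cells none of 3 higher (12.0%) and 2 lower (6.79%). In macrophage-like cells Il1b was at 195 and 76.0 CPM, Ptgs2 at 146 and 65.4 CPM and Cxcl2 at 206.4 and 121 CPM. Il10 was the lower one, at 6.27 and 22.5 CPM. These genes answer to many receptors besides C-type lectins, and the class had the make-up given above. Among 4 listed ligands, podoplanin (Pdpn), a ligand of Clec1b, was at 83.5 and 51.1 CPM, giving a ratio of 1.63 (1.55 to 1.72). The Mincle ligand Sap130 had a ratio of 1.04 (0.97 to 1.12).

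C-type lectins with other symbols moved in both directions in macrophage-like cells, with 4 of 12 at least 1.5-fold higher, where 6.5% of all tested genes were, 1 lower, where 5.47% were, and a median log2 ratio of 0.18. Mgl2, the sister gene of Clec10a, was at 85.8 and 28.0 CPM, giving a ratio of 3.07 (2.89 to 3.25), although Clec10a itself had a ratio of 0.95. Mgl2 is among the leading genes of clusters 1, 8 and 22. These held 14.8%, 0.886% and 1.20% of macrophage-like cells in the knockout library and 3.18%, 0.295% and 0.263% in the WT library. Their part in the Mgl2 ratio was not tested. Olr1, the receptor of oxidised LDL, was at 13.7 and 2.77 CPM, giving a ratio of 4.93 (4.14 to 5.87). The mannose receptor Mrc1 was at 489.7 and 523.5 CPM, giving a ratio of 0.94 (0.92 to 0.95), and the inhibitory lectin Cd72 at 191 and 294 CPM, giving a ratio of 0.65 (0.63 to 0.67). In cDC2-like cells Mgl2 was at 490.2 and 301 CPM, giving a ratio of 1.63 (1.53 to 1.73), and Cd72 at 64.7 and 129 CPM, giving a ratio of 0.50 (0.45 to 0.56).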

How the data were processed

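The authors deposited raw UMI counts, whole numbers for 32285 genes in every barcode of 2 libraries, as matrices made with Cell Ranger 7.2.0 per the file headers. The genome build was mm10 per the submitters' processing notes, while no source used here gives the annotation, chemistry, strand setting or filters. The genes and lists described were chosen with earlier results of these data known.

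Cells were called per library from a UMI threshold (9276 and 16616 UMIs, set at 0.1 of the largest barcodes' level) and, from 500 UMIs upward, from a difference to the free RNA profile (Monte Carlo, 10000 draws, false discovery rate 0.01), 12415 and 10398 barcodes in all. Cells with under 250 genes or over 10% mitochondrial UMIs were left out, and Scrublet in scanpy 1.11.5 marked 341 (3.03%) and 173 (1.88%) doublets, which were removed. Each cell took the class with the highest mean scaled marker score, given at least 3 detected markers, a score of at least 0.15 and a margin of at least 0.05 over the next class. The class names come from these markers, not from the authors. Clusters were made by the Leiden method (leidenalg 0.10.2, resolution 1, 2000 variable genes, 30 components, 15 neighbours) over both libraries, and Clec genes could take part.

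The level of a gene in a class is its summed UMIs over all UMIs of that class and library, as CPM, with exact Poisson, binomial and conditional ratio intervals at 95% for counting error only. CPM is not per length, so levels were compared within a gene. A ratio of at least 1.5 either way was called, in classes of at least 30 cells per library. Free RNA was estimated from barcodes of at most 100 UMIs at 2.47% and 2.26% of the UMIs of a cell. Thinning drew 2000 UMIs per cell and left out 137 and 186 shallower cells. Named members were, in each class, those among the 5 highest and up to 5 called each way whose interval excluded 1 and that had at least 50 UMIs in 1 library. Further members are named to complete a group, and single clusters were read after their values were seen. The scripts were tested on simulated data, and 13 alternatives were tried, and 1 more (another random seed in the cell calling) was added after seeing the data.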

Additional observations from a re-analysis of the deposited data

Results flagged for a closer look

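For 4 members the ratio of knockout over WT lay on opposite sides of 1, past 1.5-fold and with intervals clear of 1, in 2 cell classes. The difference between the classes was not tested, since each group is 1 library. Clec2g had a ratio of 2.79 in B-like cells, on 33 and 34 UMIs and at 1.32 without the 10 top cells of each library, and 0.524 in macrophage-like cells. Clec9a had 2.08 in macrophage-like cells, but 1.29 with clusters in place of gates, and 0.611 in mature dendritic-like cells, but 0.978 without the 10 top cells. Cd209a had 5.72 in macrophage-like and 0.515 in T-like cells, the last at 1.19 with clusters in place of gates. Clec4e had 9.12 in mature dendritic-like and 0.140 in cDC1-like cells. The values of Cd209a and Clec4e rest on few cells, as the counts above show.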

How the results depend on the processing

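The 24 higher and 20 lower pairs came to between 14 and 41 higher and between 14 and 28 lower over 13 alternatives. The 41 arose when the 10 cells with most UMIs of a member were left out of each class and library, which removes a larger share of the smaller group of cells, and 21 of the 24 were among them. With only barcodes above the UMI threshold 37 were higher, 22 of the 24 among them. With clusters in place of gates 14 were higher, and 11 of the 24 and 13 of the 20 remained. No cluster took the name of non-classical monocytes, so 2 of the 24 and 2 of the 20 had no value there. Clusters 0, 1, 6 and 18 took no class name and were left out in this setting. Macrophage-like cells were thus clusters 3 and 7 alone, and classical monocyte-like cells cluster 4 alone, so these classes were not the same cells drawn anew. The 38 pairs that were past 1.5-fold and met the rule for named members all kept their direction with at least 1000 UMIs per cell, at most 5% mitochondrial UMIs, each cell weighted alike and median-of-ratios scaling. Those that crossed 1 were as follows. With clusters in place of gates Clec1b in classical monocyte-like cells came to 0.817, Cd209f in macrophage-like cells to 0.851 and Cd209a in T-like cells to 1.19. With clusters weighted alike these were Clec1b in classical monocyte-like cells at 0.985, Clec16a in cDC2-like cells at 0.957 and Cd209a in T-like cells at 2.80. Cd209a in T-like cells was also at 1.44 with doublets kept. Thinning put Clec9a in classical monocyte-like cells at 0.942, and stricter gates put Clec4e in cDC2-like cells at 0.996. With only barcodes above the UMI threshold Clec12a in neutrophil-like cells was at 0.837 and Clec4e in NK-like cells at 2.20. Without the 10 top cells Clec4a1 in mature dendritic-like cells was at 1.39. Of called pairs outside the rule, Clec1a in macrophage-like cells came to 0.851 with clusters in place of gates, Clec9a in T-like cells to 1.24 there, and Clec4d in non-classical monocyte-like cells to 1.01 without the 10 top cells. Ratios near 1 crossed it too, such as Clec4d in macrophage-like cells at 0.996 with each cell weighted alike and Clec4n in neutrophil-like cells at 0.961 with at most 5% mitochondrial UMIs. With only barcodes above the UMI threshold Clec4e, Clec4d and Clec5a in neutrophil-like cells came to 2.31, 2.41 and 5.02. The cause was not tested. An alternative chosen after seeing the data, another random seed in the cell calling, kept 10913 of the 10931 and 8997 of the 9006 cells and gave 22 clusters in place of 23. It left these 38 ratios on their side of 1.5-fold, and with that seed Clec4a3 in T-like cells alone of the tested pairs changed its call, from a ratio of 0.680 to 0.656. With a different, earlier seed Clec2i in NK-like cells was on the other side of 1.5-fold, so calls this near the limit depend on the seed. Cluster boundaries, and thus values by cluster, depend on this seed. Median-of-ratios scaling moved the median of all genes by over 0.1 (log2) only in mature dendritic-like cells, by 0.11. No paired analysis was possible because each group is 1 library.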
